A study of Rattus norvegicus with 20 samples.

Results

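The cation-chloride cotransporters and the WNK kinases of the rat supraoptic nucleus (SON) are described here by 9 genes, taken by symbol, out of 32402 gene rows in the tables, 20849 of which carry a symbol. They are Slc12a1 (ENSRNOG00000005367), Slc12a2 (ENSRNOG00000015971), Slc12a4 (ENSRNOG00000019651), Slc12a5 (ENSRNOG00000018111), Slc12a7 (ENSRNOG00000016372), Wnk1 (ENSRNOG00000009956), Wnk2 (ENSRNOG00000016684), Wnk3 (ENSRNOG00000002537) and Stk39 (ENSRNOG00000024808). Poly(A) RNA from SON punches was sequenced in 4 groups of 5 male Wistar Han rats: adult EH and adult DH rats aged 3 months, and aged EH and aged DH rats aged 18 months. EH (euhydrated) rats drank freely, and DH (dehydrated) rats had no drinking water for 2 days according to the sample labels, whereas the methods of the study give a longer period. No rat carried a transgene, drinking water was the only treatment, and cages rather than single rats were allotted to EH or DH.

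Cotransporters of the Slc12a family move chloride together with sodium or potassium and thereby set the chloride gradient of a cell. NKCC2, the product of Slc12a1, and NKCC1, the product of Slc12a2, carry sodium, potassium and chloride inwards. KCC1 (Slc12a4), KCC2 (Slc12a5) and KCC4 (Slc12a7) carry potassium and chloride outwards, and KCC2 is the form found mainly in neurons. WNK kinases respond to chloride and to cell volume, and they act through SPAK, the product of Stk39, and its relative OSR1, which phosphorylate the cotransporters, switching the NKCC forms on and the KCC forms off. In magnocellular neurons, the vasopressin and oxytocin cells of the SON, the chloride gradient decides whether GABA inhibits or excites, and NKCC2 is best known for salt reabsorption in the kidney.

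Values are normalized counts, meaning the read counts of a library divided by its size factor, and each of 3 tables (1 for ageing, with the EH rats of both ages, and 1 for DH at each age) was scaled over its own 10 libraries. Adult EH rats have values 1.04 times higher in the ageing table than in the adult DH table, and aged EH rats have values 1 to 1.01 times those in the aged DH table, so levels from different tables carry that limit. LFC is the log2 fold change on the log2(value + 1) scale, and a gene was called a DEG where the limma adjusted p was under 0.05 over all genes tested. The libraries of the adult DH table held 24268398 to 28491926 reads assigned to genes, and those of the aged DH table summed to 27801540 to 28689164 normalized counts. Libraries of the same group correlated at r = 0.989 to 0.9925 across genes. The magnocellular markers Avp and Oxt were abundant in all groups: Avp had 113731 normalized counts or more and Oxt 71073 or more in every adult rat, and their lowest values in aged rats were 146514 and 82871. Beyond the magnocellular cells, a punch also holds glia, vessels and meninges, and the summed level of the oligodendrocyte markers was 160868 normalized counts or more in every rat. None of the 6 magnocellular and 5 oligodendrocyte markers was at 0 in any rat. Transcript lengths were not used here, so levels are compared between rats and not between genes.

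All 9 genes passed the filter on low values (a mean of at least 10 normalized counts) in every fit, the lowest mean being 273. With DH in adult rats, 3 of the 9 genes were DEGs, Slc12a1 and Stk39 higher and Slc12a5 lower, where 12.7% of the 15280 genes tested were DEGs (7.67% higher and 4.99% lower). With DH in aged rats, 2 of the 9 were DEGs, Slc12a1 and Stk39, both higher, where 7.29% of 15346 genes were (4.05% higher and 3.25% lower). With age in EH rats, 2 of the 9 were DEGs, Stk39 higher and Slc12a4 lower, where 5.99% of 15369 genes were (2.69% higher and 3.3% lower). At an unadjusted p under 0.05 in limma were 4 of the 9 in adult DH (26.9% of all genes), 3 in aged DH (21.4%) and 4 in ageing (20.3%). By limma, 0 of the 9 genes and 0 of 15326 genes in all (0%, in either direction) responded to DH differently at the 2 ages after adjustment, with 1 of the 9, Slc12a1, and 1522 of all genes (9.93%) at an unadjusted p under 0.05. The ageing comparison shares its EH rats with both DH comparisons, so these counts are not independent of each other. The median LFC of the 9 genes was 0.01 in adult DH (-0.01 for all genes), 0.01 in aged DH (0 for all genes) and 0.04 in ageing (0 for all genes), and the median size of the LFC was 0.04, 0.08 and 0.08, against 0.09, 0.09 and 0.08 for all genes. The typical size of change among the 9 genes was thus close to or under that of all genes, which were not matched to the 9 for level.

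**Figure D1:**
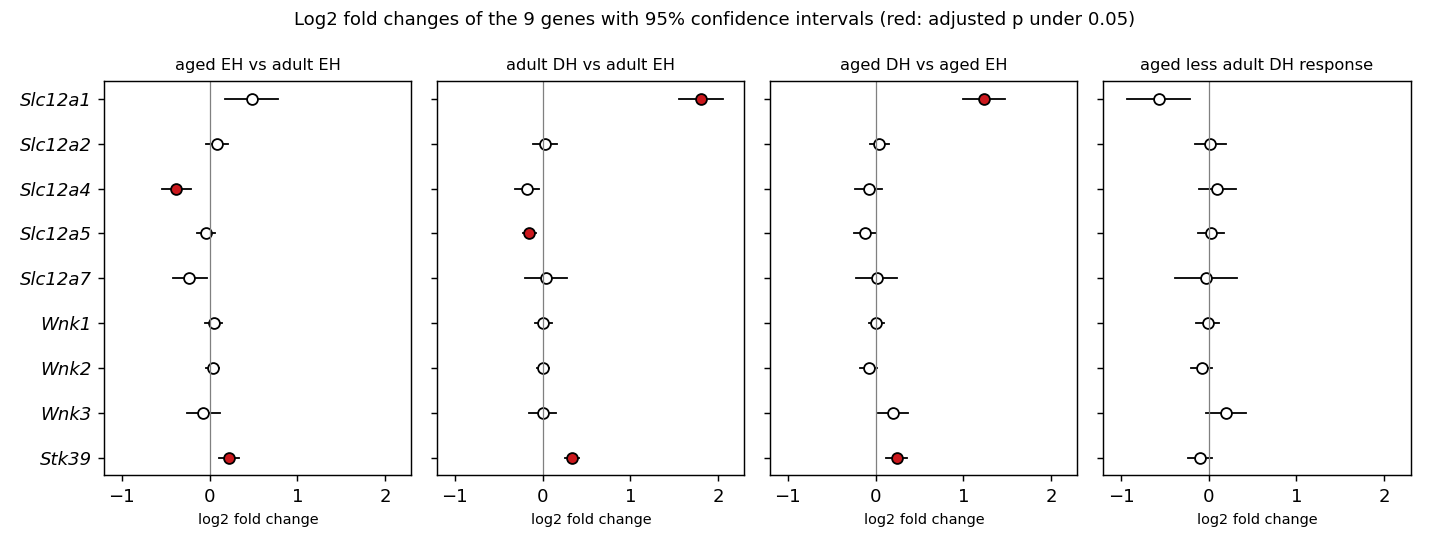
Log2 fold change (horizontal axis) of each of the 9 genes in the 3 comparisons and in the difference between the DH responses of aged and adult rats, with bars for the 95% confidence interval and red points for an adjusted p under 0.05 (limma). Slc12a1 lies far to the right in both DH panels, at 1.80 in adult and 1.23 in aged rats, and the Wnk1 and Wnk2 points lie between -0.08 and 0.05 in the first 3 panels.

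The promoters of the 2 genes called in both DH comparisons, Slc12a1 and Stk39, are shown for context. All 9 genes were found by symbol in the RefSeq promoter table (assembly GRCr8, a later assembly than the Rn6 used for the counts), and the windows are the 250 bases before the annotated start, on the gene's own strand. The window of Slc12a1 is chr3:132859340-132859589 on the plus strand, taken before the more upstream of 2 annotated starts, and that of Stk39 is chr3:73586980-73587229 on the minus strand. Capitals mark the CCAAT box (CCAAT, or ATTGG for the other strand).
Slc12a1: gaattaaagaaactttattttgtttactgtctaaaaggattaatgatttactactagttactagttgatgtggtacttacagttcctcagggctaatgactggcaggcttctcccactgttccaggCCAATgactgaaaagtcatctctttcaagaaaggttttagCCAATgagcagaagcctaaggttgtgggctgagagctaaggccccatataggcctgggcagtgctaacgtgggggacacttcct
Stk39: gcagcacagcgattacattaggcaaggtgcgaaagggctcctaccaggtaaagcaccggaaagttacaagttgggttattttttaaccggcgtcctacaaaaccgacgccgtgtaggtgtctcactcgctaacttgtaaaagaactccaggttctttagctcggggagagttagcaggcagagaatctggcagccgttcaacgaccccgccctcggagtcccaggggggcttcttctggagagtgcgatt
The Slc12a1 window holds 2 CCAAT boxes, beginning 124 and 84 bases before the start, and the Stk39 window holds none. A CCAAT box was present before at least 1 annotated start of 4 of the 9 genes (Slc12a1, Slc12a5, Wnk1 and Wnk3). It was in 34% of the 33469 rat promoters in the table, which are counted per start and not per gene. Its presence does not set these genes apart. Searched on both strands, 4 other motifs were in no window of any of the 9 genes. They were the cAMP response element TGACGTCA (1.59% of all promoters), the AP-1 site TGANTCA (6.34%), the glucocorticoid response element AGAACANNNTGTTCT (0.012%) and the tonicity enhancer (5.17%). This says only that these letters are not in these windows.

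Slc12a1, encoding NKCC2, had the largest change of the 9 genes. In adult EH rats it had 201, 167, 216, 231 and 282 normalized counts, and in adult DH rats 739, 812, 708, 853 and 671. The lowest DH rat was above the highest EH rat by more than the whole spread of either group. The mean rose from 219 ± 42 (SD, n = 5) to 757 ± 75. The LFC was 1.80, which is 3.48-fold (SE 0.116, 95% confidence interval 1.55 to 2.05), with a limma adjusted p of 4.89e-07. Among the 15280 genes tested in adult rats, Slc12a1 ranked 16th by p-value and 23rd by LFC. In adult rats, the groups did not overlap for 10.9% of all genes tested.

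In aged rats the EH values of Slc12a1 were 248, 369, 392, 293 and 286 normalized counts, and the DH values were 756, 743, 789, 756 and 641. Here too every DH rat was above every EH rat, and the groups did not overlap for 7.05% of the genes tested in aged rats. The mean went from 318 ± 61 to 737 ± 56 (SD, n = 5). The LFC was 1.23, which is 2.34-fold (SE 0.11, 95% confidence interval 0.99 to 1.47, limma adjusted p = 5.34e-05). It ranked 5th by p-value and 30th by LFC of 15346 genes.

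The DH levels of the ages lay side by side, with 671 to 853 normalized counts in adult and 641 to 789 in aged DH rats, whereas the EH levels were further apart. In the ageing table, adult EH rats had 210, 173, 226, 241 and 294 normalized counts of Slc12a1 and aged EH rats 248, 369, 392, 293 and 288. The groups overlapped, and the LFC with age was 0.48 (SE 0.144, 95% confidence interval 0.17 to 0.78) with a limma adjusted p of 0.0703, so Slc12a1 was not a DEG of ageing. Without aged EH replicate 1 it was (LFC 0.56, adjusted p = 0.0387), and likewise without adult EH replicate 6 (LFC 0.57, adjusted p = 0.0356). The response to DH was smaller in aged rats by an LFC of -0.57 (SE 0.172, 95% confidence interval -0.93 to -0.21), the 183rd lowest p-value of 15326 genes, and in limma it did not pass after adjustment (unadjusted p = 0.00326, limma adjusted p = 0.272). In order of its mean level, Slc12a1 thus ran from adult EH through aged EH to aged DH and adult DH, and neither the EH pair nor the DH pair was separated beyond the spread of its rats.

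Several cell type markers moved with these groups. The summed level of the 6 magnocellular markers (Avp, Oxt, Pdyn, Gal, Otp, Sim1) was 207667 to 298264 normalized counts in adult EH and 299077 to 398090 in adult DH rats, which do not overlap. Most of this sum was Avp and Oxt (means of 163773 and 79666 in adult EH rats). In adult DH, 2 of the 6 were called higher (Avp, LFC 0.48, and Pdyn, LFC 1.04), and Oxt, Gal, Otp and Sim1 were not called. In aged rats the sum was 268277 to 382779 for EH and 318206 to 527015 for DH, which overlap. Of the 6, 1 was called higher (Pdyn, LFC 0.58) and 1 lower (Sim1, LFC -0.30). With age in EH rats the sum was 216123 to 310827 in adult and 269991 to 382883 in aged rats, which overlap. Here 1 of the 6 was called higher (Pdyn, LFC 0.78, limma adjusted p = 0.00308, groups apart), and Oxt had an LFC of 0.26 (adjusted p = 0.0524). In aged rats the sum of 5 markers of cortical and amygdalar glutamatergic neurons was 1665 to 4045 without and 849 to 1598 with DH, with 3 of the 5 called lower (Slc17a7, LFC -1.92), and it overlapped in adult rats (923 to 3088 in EH, 908 to 2323 in DH). Of the 5 oligodendrocyte markers, 1 was called lower in adult DH (median LFC -0.17) and 1 higher in aged DH (median 0.12). All 5 had an unadjusted limma p under 0.05 for the difference between the ages (9.93% of all genes), and 0 passed after adjustment. Of the 5 microglial markers (median LFC -0.18 in adult DH), 4 were at an unadjusted p under 0.05 there (26.9% of all genes) and 0 were called. The part of any of these markers in the levels of Slc12a1 and the other genes was not tested, and in bulk punches fewer cells of a type and less RNA per cell cannot be told apart.

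Slc12a2, encoding NKCC1, was called in none of the comparisons. It ranged from 3253 to 4131 normalized counts in adult EH, 3417 to 4070 in adult DH, 3682 to 4323 in EH rats and 3932 to 4587 in DH rats of the aged table. The LFC was 0.03 in adult DH (95% confidence interval -0.11 to 0.16, limma adjusted p = 0.85), 0.04 in aged DH (-0.06 to 0.15, adjusted p = 0.694) and 0.08 in ageing (-0.04 to 0.21, adjusted p = 0.491). A change of Slc12a2 with DH the size of that of Slc12a1 lay outside these intervals in both ages. As a description, the ratio of Slc12a1 to Slc12a2 within a rat was 0.0451 to 0.0682 in adult EH and 0.165 to 0.211 in adult DH rats, and in aged rats it was 0.0597 to 0.107 without and 0.152 to 0.201 with DH.

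**Figure D2:**
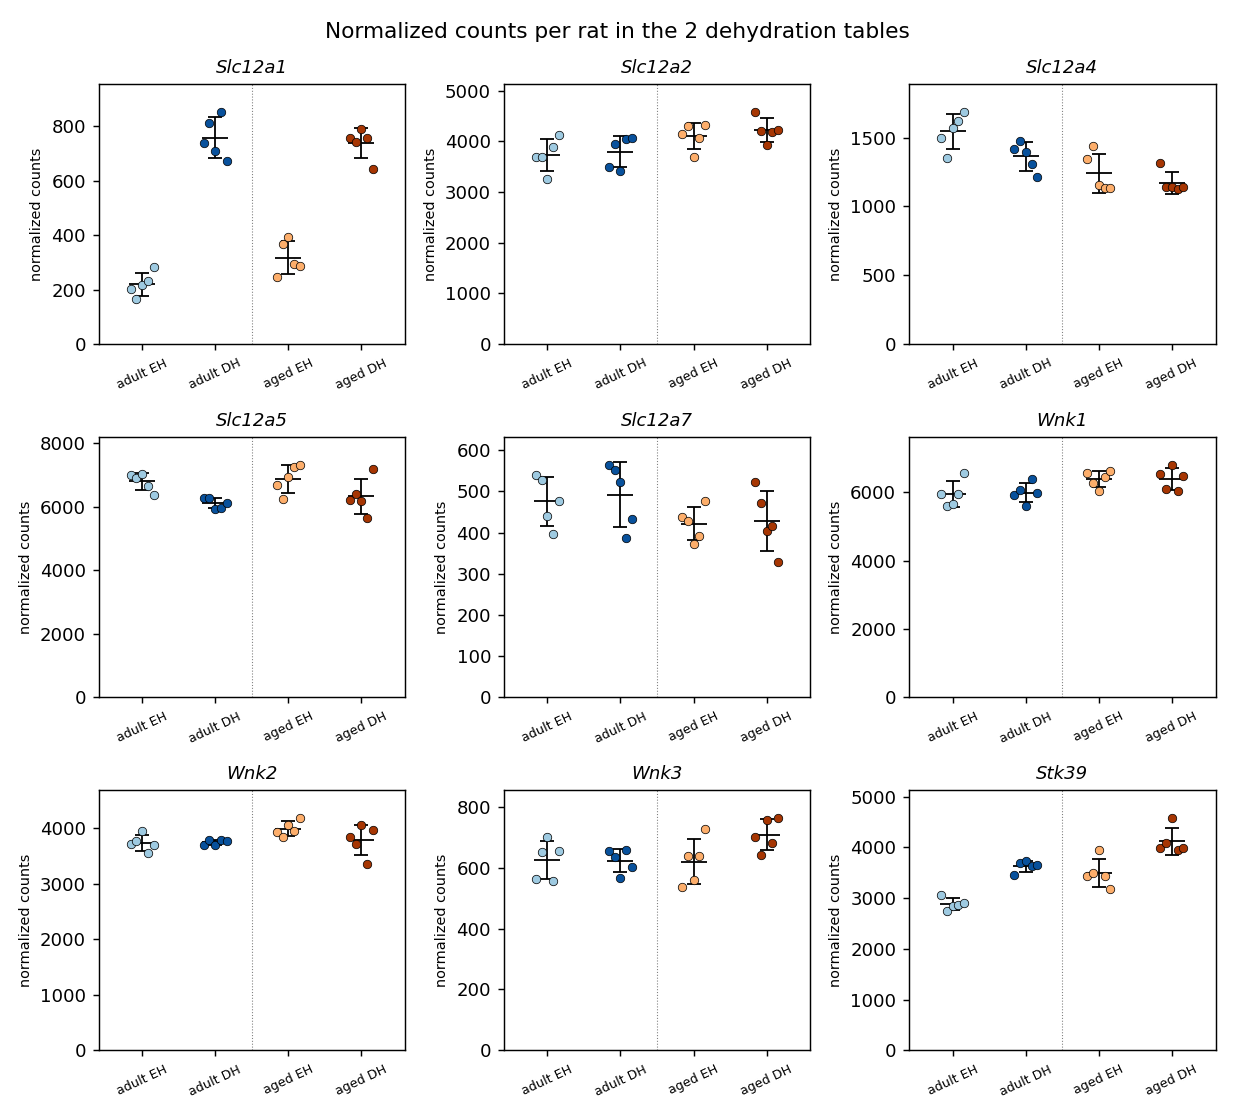
Normalized counts of each of the 9 genes (vertical axis, starting at 0) in each rat, with the mean as a wide bar and the SD as whiskers (5 rats per group); the dotted line separates the adult and aged tables, which were scaled separately. For Slc12a1 and Stk39 all DH points lie above all EH points at both ages, for Slc12a5 all adult DH points lie below the adult EH points, and the other genes overlap.

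Slc12a5, encoding the neuronal chloride extruder KCC2, had 7015, 6918, 7019, 6653 and 6375 normalized counts in adult EH and 6286, 6262, 5938, 5971 and 6104 in adult DH rats. The highest DH rat was just under the lowest EH rat. The mean fell from 6796 ± 279 to 6112 ± 161 (SD, n = 5), to 0.9 of the EH level, with an LFC of -0.15 (SE 0.0326, 95% confidence interval -0.22 to -0.08, limma adjusted p = 0.0081). The summed level of the 5 neuronal markers found (Syt1, Rbfox3, Tubb3, Stmn2, Nefl) overlapped between these groups, with 57491 to 62455 in EH and 59598 to 60821 in DH rats. Single markers moved both ways. Nefl, a neurofilament subunit, fell (LFC -0.19, limma adjusted p = 0.0084) and Tubb3, a neuronal tubulin, rose (LFC 0.18, adjusted p = 0.00442), each without overlap. Their part in the level of Slc12a5 was not tested. In aged rats Slc12a5 had 6671, 6245, 6931, 7251 and 7325 normalized counts in EH and 6208, 6397, 6187, 5651 and 7183 in DH rats. Here DH replicates 2 and 6 lay within the range of the EH rats, and the LFC of -0.12 (SE 0.0585, 95% confidence interval -0.25 to 0) did not pass (limma adjusted p = 0.239). The aged response less the adult response was 0.03 (-0.12 to 0.18, adjusted p = 0.93), so the data do not show that the ages differed. In EH rats of the ageing table the levels were 6645 to 7329 in adult and 6254 to 7372 in aged rats, with an LFC of -0.04 (-0.14 to 0.06, limma adjusted p = 0.698).

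The balance of NKCC1 to KCC2 transcripts in the whole punch overlapped between EH and DH at both ages. The ratio of Slc12a2 to Slc12a5 normalized counts within a rat was 0.551 ± 0.069 in adult EH (0.464 to 0.648) and 0.621 ± 0.0533 in adult DH rats (0.557 to 0.676; SD, n = 5). In aged rats it was 0.599 ± 0.0611 with EH (0.531 to 0.69) and 0.672 ± 0.0666 with DH (0.588 to 0.741). The ratio is not corrected for transcript length, so only its differences between rats can be read. The punches also hold glia, vessels and meninges, so these differences are not those of neurons alone.

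Slc12a4, encoding KCC1, the widely expressed housekeeping KCC, was lower in aged rats. In the ageing table, adult EH rats had 1556, 1408, 1639, 1689 and 1760 normalized counts and aged EH rats 1344, 1443, 1153, 1134 and 1142. Aged replicate 2 was above adult replicate 2, so the groups overlapped by that single pair, and 3 of the 5 aged rats were close together near the bottom. The mean was 1611 ± 135 in adult and 1243 ± 142 in aged EH rats (SD, n = 5), and the LFC was -0.38 (SE 0.0754, 95% confidence interval -0.54 to -0.21, limma adjusted p = 0.0104). Markers of several non-neuronal cells were lower in the same aged rats. The summed level of the meningeal fibroblast markers was 5764 to 6808 normalized counts in adult and 2540 to 4479 in aged EH rats, with 2 of 4 tested called lower (Col1a1, LFC -1.66, and Lum, LFC -0.77), while Col1a2 was listed at 0 in every rat. The pericyte sum was 4096 to 4409 in adult and 3543 to 3917 in aged rats, with 1 of 4 called lower (Pdgfrb, LFC -0.28). The oligodendrocyte sum was 181121 to 261266 in adult and 168045 to 206760 in aged rats, which overlap, with 3 of 5 called lower (Mobp, LFC -0.37, Mog, -0.36, and Cnp, -0.34). Of the astrocyte markers, 2 of 6 were called lower (Aqp4, LFC -0.26, and Gja1, -0.28). Gfap (0.09) and S100b (0.06) were not lower, and the astrocyte sum overlapped, with 158789 to 190535 in adult and 158670 to 188587 in aged rats. Other markers were higher in the same aged rats. The microglial sum was 4735 to 5350 normalized counts in adult and 5406 to 6595 in aged rats, with 3 of 5 called higher. Of 4 choroid plexus markers tested, 1 was called higher (Clic6, LFC 0.70). The part of these markers in the level of Slc12a4 was not tested.

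With DH, Slc12a4 had 1353 to 1689 normalized counts in adult EH and 1214 to 1477 in adult DH rats, and the LFC of -0.18 (95% confidence interval -0.32 to -0.04) did not pass in limma (adjusted p = 0.0804). The same LFC passed with DESeq2 on the recovered reads (adjusted p = 0.0461), and without adult EH replicate 2 limma gave -0.23 (adjusted p = 0.0248). In aged rats it had 1133 to 1441 normalized counts in EH and 1124 to 1314 in DH rats, with an LFC of -0.08 (-0.23 to 0.07, limma adjusted p = 0.593).

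Slc12a7, encoding KCC4, was among the less steady of the 9 genes from rat to rat. In the ageing table it had 413 to 562 normalized counts in adult EH and 373 to 480 in aged EH rats, an LFC of -0.23 (95% confidence interval -0.42 to -0.03) that did not pass (limma adjusted p = 0.171). With DH it ranged from 396 to 539 and from 386 to 565 in adult EH and DH rats, and from 373 to 477 and from 328 to 523 in aged EH and DH rats. The LFC was 0.04 in adult (-0.2 to 0.28, limma adjusted p = 0.858) and 0.01 in aged rats (-0.22 to 0.24, adjusted p = 0.973), intervals wide enough to hold a change the size of that of Slc12a5.

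**Figure D3:**
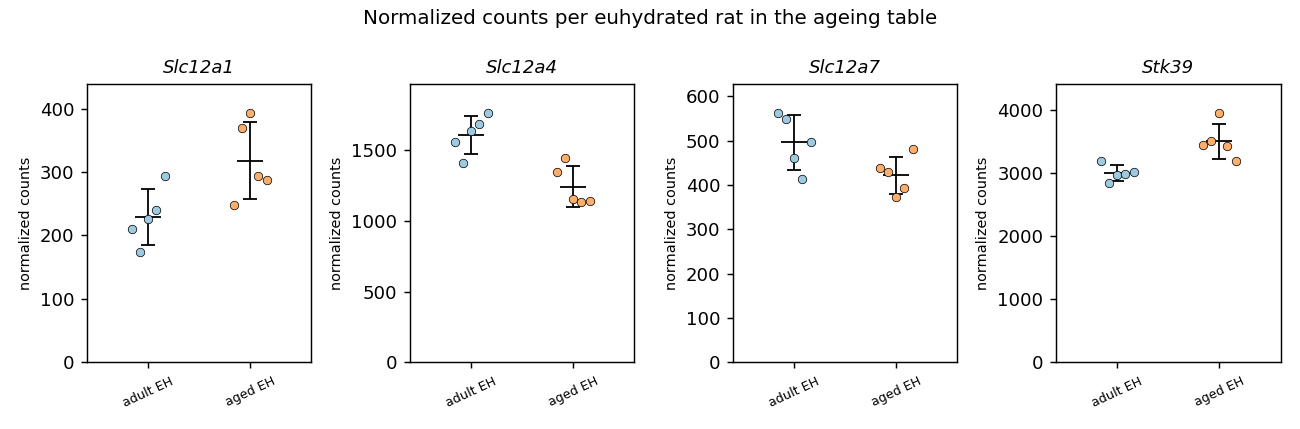
Normalized counts (vertical axis, starting at 0) in each adult EH and aged EH rat of the ageing table for the 4 genes with an unadjusted p under 0.05, with the mean as a wide bar and the SD as whiskers (5 rats per group). All aged points lie above all adult points for Stk39, and the groups overlap for Slc12a1, Slc12a4 and Slc12a7.

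Stk39, encoding SPAK, the kinase that links WNK kinases to the cotransporters, was the only one of the 9 genes that was a DEG in all 3 comparisons, each time higher. Adult EH rats had 3063, 2739, 2843, 2857 and 2902 normalized counts and adult DH rats 3451, 3684, 3723, 3631 and 3648. All DH rats were above all EH rats, and the spread within either group was small. The mean rose from 2881 ± 118 to 3627 ± 105 (SD, n = 5), 1.26-fold, with an LFC of 0.33 (SE 0.0342, 95% confidence interval 0.26 to 0.41, limma adjusted p = 3e-05), the 89th lowest p-value of 15280 genes. Aged EH rats had 3440, 3502, 3945, 3430 and 3172 normalized counts and aged DH rats 3981, 4087, 4581, 3953 and 3988. The groups were again apart, though the lowest DH rat was above the highest EH rat, replicate 4, by only a few counts. The mean rose from 3498 ± 280 to 4118 ± 264 (SD, n = 5), 1.18-fold, with an LFC of 0.24 (SE 0.0553, 95% confidence interval 0.12 to 0.36, limma adjusted p = 0.0186). Without aged EH replicate 5 the call was lost (LFC 0.23, adjusted p = 0.0512). The aged response less the adult response was -0.10 (-0.24 to 0.04, limma adjusted p = 0.686).

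With age, Stk39 had 3192, 2850, 2968, 2978 and 3025 normalized counts in adult EH and 3446, 3507, 3946, 3434 and 3193 in aged EH rats. The lowest aged rat was level with the highest adult rat, a gap of about 1 count, and the other 4 aged rats were above all adult rats. The groups were apart in 6.38% of all genes in this comparison. The mean was 3003 ± 124 in adult and 3505 ± 274 in aged EH rats (SD, n = 5), with an LFC of 0.22 (SE 0.0498, 95% confidence interval 0.11 to 0.33, limma adjusted p = 0.0196). The microglial marker sum was also higher in aged EH rats, with 4735 to 5350 normalized counts in adult and 5406 to 6595 in aged rats and 3 of 5 markers called higher. Of the 6 magnocellular markers, 1 was called higher, Pdyn (LFC 0.78). Gal (LFC -0.24) and Otp (-0.09) leaned lower without a call, and the magnocellular sum overlapped between the ages. Called lower in the same aged rats were 2 of 4 meningeal fibroblast, 1 of 4 pericyte, 3 of 5 oligodendrocyte and 2 of 6 astrocyte markers. The part of these markers in the level of Stk39 was not tested.

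None of Wnk1, Wnk2 and Wnk3 was called in any comparison. Wnk1, the broadly expressed member, had 5599 to 6574 normalized counts in adult EH, 5598 to 6388 in adult DH, and in aged rats 6043 to 6605 with EH and 6045 to 6803 with DH, and its LFCs were 0.01 (-0.09 to 0.11, limma adjusted p = 0.901) in adult DH, 0 (-0.08 to 0.09, adjusted p = 0.993) in aged DH and 0.05 (-0.05 to 0.14, adjusted p = 0.618) in ageing. Wnk2, a WNK kinase enriched in neurons, had 3558 to 3951, 3685 to 3784, 3844 to 4181 and 3347 to 4049 normalized counts in the same groups, with LFCs of 0 (-0.06 to 0.07, limma adjusted p = 0.966), -0.08 (-0.18 to 0.02, adjusted p = 0.369) and 0.04 (-0.04 to 0.11, adjusted p = 0.628). All of these intervals for Wnk1 and Wnk2 lay between -0.18 and 0.14. Wnk3, known in the brain as an activator of NKCC1 and inhibitor of the KCC forms, had 556 to 702 normalized counts in adult EH and 566 to 659 in adult DH rats, with an LFC of 0 (-0.15 to 0.15, limma adjusted p = 0.997). In aged rats Wnk3 had 537, 638, 559, 639 and 726 normalized counts in EH and 702, 641, 755, 682 and 763 in DH rats, which overlap, and the LFC of 0.20 (0.03 to 0.37, unadjusted p = 0.025) did not pass the limma test after adjustment (adjusted p = 0.156). With age its LFC was -0.07 (-0.26 to 0.12, limma adjusted p = 0.724), and the response to DH differed between the ages by 0.20 (-0.03 to 0.43, adjusted p = 0.572).

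For the other 5 genes the difference in DH response between the ages, aged less adult, was 0.02 for Slc12a2 (-0.16 to 0.2), 0.10 for Slc12a4 (-0.11 to 0.31), -0.03 for Slc12a7 (-0.38 to 0.32), -0.01 for Wnk1 (-0.14 to 0.12) and -0.08 for Wnk2 (-0.2 to 0.04), with limma adjusted p-values of 0.967, 0.792, 0.969, 0.971 and 0.683. None passed, and the intervals bound any such difference rather than show that the ages responded alike.

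Around the 9 genes, 13 other cotransporter and WNK pathway genes were tested (Slc12a3, Slc12a8, Slc12a9, Wnk4, Oxsr1, Cab39, Cab39l, Klhl2, Klhl3, Cul3, Nedd4l, Sgk1, Sgk3). In adult DH, 2 rose and 0 fell, where 12.7% of all genes tested were called. Sgk1, an inducible kinase that controls ion transport and acts on WNK signalling, rose from 1072 ± 130 to 2208 ± 485 normalized counts (SD, n = 5; LFC 1.02, SE 0.132, limma adjusted p = 0.000224). Cul3, the scaffold of the ubiquitin ligase that degrades WNK kinases, rose from 4415 ± 86 to 5059 ± 161 (LFC 0.20, limma adjusted p = 0.000656). Both genes had DH rats above EH rats without overlap, where the groups did not overlap for 10.9% of all genes. None of the KLHL adaptors of that ligase passed (Klhl2, LFC -0.06, and Klhl3, LFC -0.08).

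In aged DH, 0 of these 13 genes were called by limma, with 6 at an unadjusted p under 0.05. Over all genes tested, 7.29% were called and 21.4% were at that unadjusted p. The mean of Sgk1 was 1430 ± 290 normalized counts without and 1836 ± 358 with DH in aged rats (LFC 0.36, limma adjusted p = 0.133), and it was called without aged EH replicate 5 (LFC 0.47, adjusted p = 0.0461). Cul3 had an LFC of 0.11 (limma adjusted p = 0.111), which passed when the spread was shared over all 20 rats (adjusted p = 0.0414). Wnk4, best known in the kidney, had an LFC of -0.21 in aged DH (95% confidence interval -0.41 to -0.01, limma adjusted p = 0.213) and 0.16 in adult DH (-0.08 to 0.4, adjusted p = 0.385). In ageing its LFC was 0.33 (0.12 to 0.54, unadjusted p = 0.00455), which did not pass either (limma adjusted p = 0.0642). Aged less adult, the DH responses differed by -0.66 for Sgk1 (unadjusted p = 0.00507, limma adjusted p = 0.297) and -0.37 for Wnk4 (unadjusted p = 0.0197, adjusted p = 0.414), so neither was shown to respond differently in aged rats. In ageing, 1 of the 13 rose, Cab39l, a scaffold that activates SPAK and OSR1 (LFC 0.18, limma adjusted p = 0.0356), a call lost in 8 of the 10 fits that left out 1 rat. Over all genes, 5.99% were called in ageing. Sgk1 was not called in ageing (LFC 0.34, limma adjusted p = 0.105) but was without aged EH replicate 4 (LFC 0.43, adjusted p = 0.0412).

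Of 14 other chloride transporters and channels tested, 2 rose and 1 fell in adult DH, 1 rose in aged DH and 1 fell in ageing. Over all genes tested, 12.7%, 7.29% and 5.99% were called in these comparisons. Clcn5, an endosomal chloride-proton exchanger, rose in both DH comparisons, from 493 ± 33 to 644 ± 53 normalized counts in adult (LFC 0.38, limma adjusted p = 0.00171) and from 514 ± 62 to 683 ± 64 in aged rats (LFC 0.41, adjusted p = 0.00794). The other calls were Lrrc8d, a subunit of the volume-regulated anion channel (adult DH, LFC 0.14, limma adjusted p = 0.04), Clcn4 (adult DH, -0.14, adjusted p = 0.0248) and the anion exchanger Slc4a2 (ageing, -0.19, adjusted p = 0.0314). They were lost in 7, 4 and 6 of the 10 fits that left out 1 rat.

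The sodium pump supplies the gradient that NKCC1 and NKCC2 use. Of 9 of its genes, 2 rose and 1 fell in adult DH, 1 rose and 1 fell in aged DH, and 0 were called by limma in ageing, with 3 at an unadjusted p under 0.05. The shares called over all genes were 12.7%, 7.29% and 5.99%, with 20.3% at that unadjusted p in ageing. Atp1b3, a beta subunit, rose from 3591 ± 78 to 4524 ± 105 normalized counts in adult (LFC 0.33, limma adjusted p = 4.79e-06) and from 3939 ± 237 to 4826 ± 279 in aged rats (LFC 0.29, adjusted p = 0.00251), with no overlap at either age. The groups did not overlap for 10.9% of all genes in adult DH and 7.05% in aged DH. Of the FXYD regulators, Fxyd5 rose in adult DH (LFC 0.62, limma adjusted p = 0.000634) and had an LFC of 0.31 in aged DH (adjusted p = 0.155), where it was called without aged DH replicate 6 (LFC 0.41, adjusted p = 0.0246). Fxyd7, a brain form, fell in adult DH (LFC -0.30, limma adjusted p = 0.0174) and in aged DH (LFC -0.49, adjusted p = 0.0128). In ageing its LFC of -0.32 did not pass (limma adjusted p = 0.0889) but did without aged EH replicate 5 (LFC -0.42, adjusted p = 0.0097).

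Of 6 genes whose products bind or steady KCC2 (Neto2, Grik2, Epb41l1, Arhgef7, Pacsin1, Ckb), limma called 0 in ageing and 0 in adult DH, with 1 at an unadjusted p under 0.05 in each. Over all genes tested, 5.99% and 12.7% were called there, and 20.3% and 26.9% were at that unadjusted p. In aged DH, 1 fell, Neto2, an auxiliary protein that binds KCC2, from 723 ± 48 to 611 ± 52 normalized counts (LFC -0.24, limma adjusted p = 0.0358), and its LFC in adult DH was -0.17 (adjusted p = 0.109). The aged call was lost in 8 of the 10 fits that left out 1 rat, and 7.29% of all genes were called in aged DH. In none of these 4 lists did the response to DH differ between the ages for any gene by limma, with 2 of the pathway genes and 0 of the others at an unadjusted p under 0.05. Over all genes, 9.93% were at that unadjusted p.

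**Figure D4:**
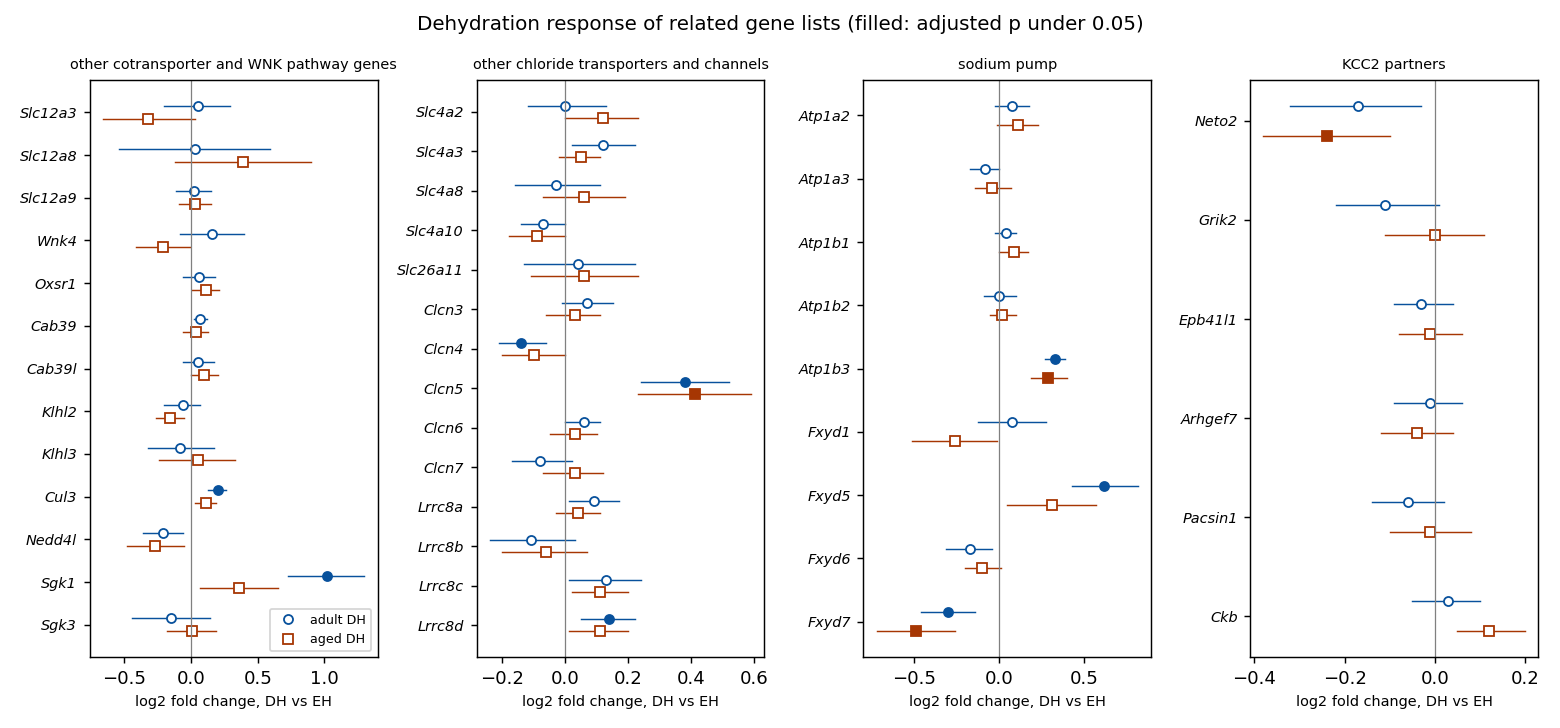
Log2 fold change of DH against EH (horizontal axis) for the genes of the 4 related lists in adult (blue circles) and aged rats (brown squares), with bars for the 95% confidence interval and filled symbols for an adjusted p under 0.05 (limma). Sgk1 lies at 1.02 in adult and 0.36 in aged rats, and both symbols are filled for Clcn5, Atp1b3 and Fxyd7.

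The genes whose levels ran most like those of Slc12a1, by the lower of its Pearson correlations over the 10 adult and the 10 aged rats among 12575 other genes, were Emb (r = 0.981 and 0.979), Pdia3 (r = 0.977 and 0.975) and Crem (r = 0.974 and 0.979). Their LFCs with DH were smaller, 0.40 and 0.29 for Emb, 0.29 and 0.25 for Pdia3, and 0.55 and 0.44 for Crem in adult and aged rats. The EH and DH rats form separate clusters for Slc12a1, so these values mostly carry the difference between the groups. For Slc12a5 the genes were Prrt3 (r = 0.961 and 0.917), Mtor (r = 0.91 and 0.941) and Dnm1 (r = 0.924 and 0.878), and for Slc12a2 they were Enpp4 (r = 0.786 and 0.802), Crybg3 (r = 0.769 and 0.78) and Rnf13 (r = 0.788 and 0.737). These are descriptions over rats that share library scaling and groups, and no test was made of them.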

How the data were processed

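SON punches of 20 rats, 5 per group, were sequenced as stranded poly(A) libraries. The authors aligned reads to Rn6 with STAR, obtained gene counts with featureCounts and deposited 3 tables. The deposited signal is the read count divided by the DESeq2 size factor of the library, estimated within each table. Versions of STAR and featureCounts are not stated in the sources used here. Other deposited columns hold the authors' own fold changes and p-values and were not used. All 30 per-sample columns were used, and replicate numbers are those of the labels.

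A gene entered a fit at a mean of at least 10, and log2(value + 1) was tested with limma 3.58.1 (lmFit and eBayes with a trend, R 4.3.3), two-sided, adjusted by Benjamini-Hochberg over every gene in the fit, at a threshold of 0.05. The difference between the ages was fitted over the 20 rats of the DH tables. The adult DH table gave whole reads (100% of 188383 values within 0.1 read), on which edgeR 4.0.16 and DESeq2 1.42.0 called 1936 and 2256 genes, against 1934 by limma. Scripts were tested on simulated data. The 9 genes, the lists and the markers were chosen with earlier results of these data known. All 9 genes are named in every comparison, any gene of a related list may be named with that list, and the 3 genes most like Slc12a1, Slc12a2 and Slc12a5 by correlation are named. A few genes of the lists and markers are not reported here and were left out of the list counts. Of the marker genes, Snap25 and Pecam1 were not matched by symbol. Alternatives changed the pseudocount, filter, scaling, trend, block, tool, shared spread or 1 rat at a time. For the named list genes they were added after seeing the data. Figures were drawn with matplotlib 3.10.9.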

Additional observations from a re-analysis of the deposited data

Results flagged for a closer look

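Of the 36 combinations of gene and group checked, 9 genes in the 4 groups, 2 held a rat far from the other 4. Slc12a4 had 1314 normalized counts in aged DH replicate 1, against 1124 to 1143 in the other 4 aged DH rats. Stk39 had 4581 normalized counts in aged DH replicate 3, against 3953 to 4087 in the other 4. Chance flags about 1 in 20 groups. Leaving out either rat did not change whether its gene was called in aged DH.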

How the results depend on the processing

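Between 0 and 4 of the 9 genes were called in each comparison under every setting tried. Without the limma trend, 1 of the 9 genes was called in ageing and 1 in aged DH, since Stk39 did not pass in either (adjusted p = 0.0705 and 0.0727). With 1 rat left out, the genes called numbered 2 to 3 in ageing, 3 to 4 in adult DH, 1 to 2 in aged DH and 0 to 0 for the difference between the ages. The directions that reversed were all of LFCs near 0. In adult DH the LFC became 0.00 for Wnk3 with TMM scaling, and with equal totals 0.00 for Slc12a2, -0.01 for Wnk1 and -0.02 for Wnk2. In aged DH it became -0.01 for both Slc12a7 and Wnk1 with equal totals. With 1 rat left out, LFCs in adult DH were -0.02 to 0.06 for Slc12a2, -0.02 to 0.13 for Slc12a7, -0.01 to 0.05 for Wnk1, -0.01 to 0.02 for Wnk2 and -0.04 to 0.04 for Wnk3. In aged DH they were -0.07 to 0.10 for Slc12a7 and -0.02 to 0.02 for Wnk1. For the difference between the ages they were -0.02 to 0.07 for Slc12a2, -0.02 to 0.07 for Slc12a5, -0.12 to 0.06 for Slc12a7 and -0.05 to 0.01 for Wnk1. The cause was not tested. The LFC of Slc12a1 was 1.70 to 1.89 in adult DH and 1.15 to 1.31 in aged DH with 1 rat left out, called each time.

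Same-numbered rats showed no clear tendency to deviate together (13 pairs, r = -0.0825 to 0.162, 3 of 13 best with their own number). The values gave no sign that the numbers pair rats, though a weak pairing could be missed. With a replicate block the genes called stayed at 2 in ageing, 3 in adult DH, 2 in aged DH and 0 for the difference. The block turned the LFC of Wnk3 in adult DH to 0.05, of Slc12a7 and Wnk1 in aged DH to -0.02 and -0.04, and the difference of Slc12a2 to -0.02. Among the list genes, Clcn5 (adjusted p = 0.0684) and Fxyd7 (0.0591) lost their aged DH call under the block, and Fxyd7 (0.101) lost its adult DH call. The calls of Cab39l, Slc4a2, Lrrc8d, Clcn4 and Neto2 were each also lost under equal totals, without the trend or under the block, and those of Fxyd7 without the trend in aged DH (0.0542) and with a shared spread in adult DH (0.0522). The reads per library are known only for the adult DH table (24268398 to 28491926), and 5 rats a group limit the precision at either age. The tests took the 5 rats of a group as independent, although cages were allotted to EH or DH. The labels do not give the cage of a rat, so any likeness between cage mates is not in the p-values and intervals.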
